A study of Macaca mulatta with 136 samples.

Results

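Of 19422 genes quantified in rhesus macaque retina and RPE/choroid, 7 separated the fovea from the perimacula in RPE/choroid when the 4 eyes were compared with edgeR at an adjusted p under 0.05: MYO1E, PALLD, SORBS2, CHRM3, EBF3, MOXD1 and PRRX1. They were the only genes called of 15674 tested in that comparison (0.0447%), so that the members were chosen by their estimated counts in the foveal and perimacular RPE/choroid libraries, and their difference between these is given as a description. MYO1E, PALLD and SORBS2 were higher at the fovea, whereas CHRM3, EBF3, MOXD1 and PRRX1 were higher at the perimacula. What the choice did not use was the nasal RPE/choroid and all of the neural retina. The peripheral RPE/choroid was in the same fit and shared in its filter, scaling and estimate of spread, but its level was not compared. Between nasal and peripheral RPE/choroid 6 of the 7 genes changed, where 44.6% of all genes tested did. CHRM3, EBF3 and SORBS2 differed between fovea and perimacula of the retina in the direction opposite to that of RPE/choroid.

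The tissue came postmortem from adult rhesus macaques, the animals RM03 and RM04, for which the labels name no treatment, with the right eye (OD) and the left eye (OS) of each. Punches of 2 mm were taken at the locations labelled Fovea, Perimacular, Nasal and Peripheral, and each was split into neural retina and RPE/choroid, so that 8 groups of 4 libraries were available. The labels do not give the distance of the nasal punch from the fovea. The replicate is the eye. Fellow eyes share an animal, so the 4 eyes stand for 2 animals and the p-values do not measure the spread of a wider population. Values are estimated counts per 1000000 of the library (CPM) with TMM scaling over all 32 libraries, always given in the order RM03 right, RM03 left, RM04 right and RM04 left eye. CPM is not divided by transcript length, and levels of different genes are not compared. The libraries held between 42448891 and 78574034 estimated counts. The periphery libraries were sequenced on a flow cell of their own, and location and flow cell cannot be told apart wherever the periphery is one side of a comparison. Each library is bulk tissue, in which fewer cells of a type and less RNA per cell cannot be told apart.

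The retinal pigment epithelium is a single layer of pigmented cells that renews the visual chromophore, takes up shed photoreceptor tips and moves nutrients and fluid between the photoreceptors and the choroid, the vascular bed behind it. The choroid holds arteries and veins with smooth muscle, a capillary sheet, fibroblasts, melanocytes, immune cells and nerves, so that RPE/choroid is a mixture of epithelium and stroma. The members fall into 4 kinds of protein. MYO1E, PALLD and SORBS2 act at the actin cytoskeleton and cell adhesions, CHRM3 is a receptor for acetylcholine, EBF3 and PRRX1 are transcription factors, and MOXD1 is an enzyme-like protein of the secretory pathway.

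Libraries that stood apart were looked for with marker genes of the cell types that RPE/choroid could hold. Pigment epithelium markers were abundant in all 16 RPE/choroid libraries (summed CPM of 7 genes from 3307 to 22469), as the label requires. Markers of Schwann cells, the sheath cells of peripheral nerves, summed to between 638 and 895 CPM at the fovea and nasal locations but to 11027, 804, 939 and 3022 at the perimacula and to 5929, 16275, 1192 and 1711 at the periphery. The RPE/choroid perimacula library of the RM03 right eye and the periphery library of the RM03 left eye also had the lowest pigment epithelium sums of their locations, 4741 and 3307 CPM. Rod markers, which come from retina, summed to 538 CPM in the fovea RPE/choroid of the RM04 right eye against 51 to 133 in the other foveal libraries, and reached 924 CPM at the periphery. No other gene of the lists could be called between fovea and perimacula in RPE/choroid, since the 7 members were all the genes called there. The main differences of the members that rest on these libraries are given with and without them below. Marker and family lists are given with all libraries only.

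**Figure D1:**
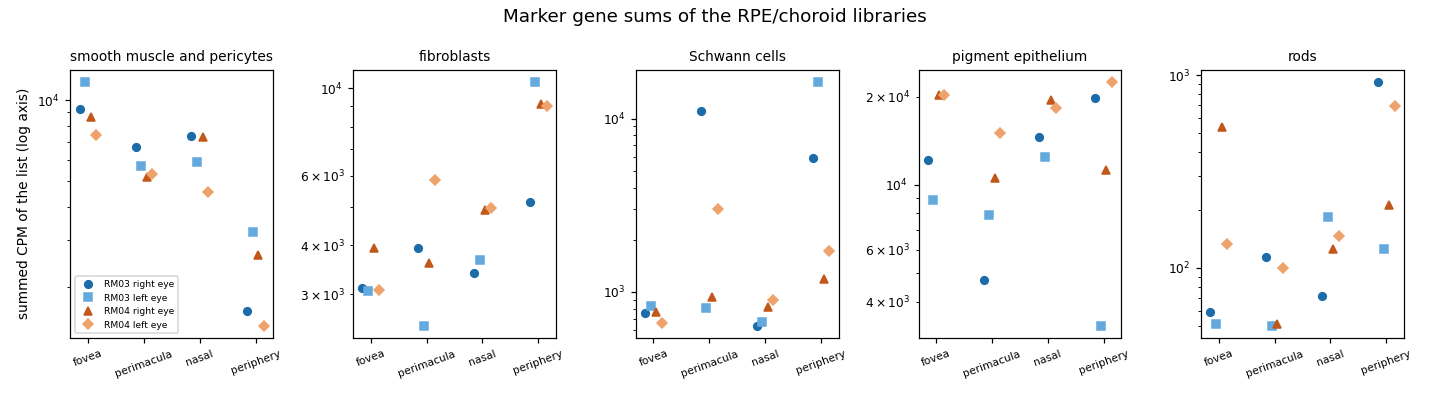
Summed CPM of 5 marker lists in each RPE/choroid library, on a log axis, by location, with a symbol for each eye. Smooth muscle and pericyte markers lay between 7441 and 11706 CPM at the fovea and between 1438 and 3217 at the periphery, and Schwann cell markers were high in single libraries of the perimacula and the periphery.

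The actin-associated genes were highest at the fovea. MYO1E (ENSMMUG00000012933) encodes a class I myosin, a single-headed motor that links membranes to actin filaments. In RPE/choroid it measured 80.0, 83.0, 88.8 and 85.3 CPM at the fovea and 55.8, 58.4, 54.0 and 58.02 CPM at the perimacula. At the nasal location it measured 67.4, 65.0, 77.7 and 59.6 CPM, and at the periphery 43.8, 43.1, 36.1 and 44.2 CPM. No 2 locations overlapped: every foveal eye lay above every nasal eye, every nasal eye above every perimacular eye and every perimacular eye above every peripheral eye. The means were 84.3 ± 3.71, 67.4 ± 7.59, 56.5 ± 2.07 and 41.8 ± 3.82 CPM (SD, n = 4) in that order, and the fovea minus perimacula difference was 0.58 ± 0.08 on the log2 scale (standard error), or 1.498-fold.

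PALLD (ENSMMUG00000007365) encodes palladin, a scaffold of actin stress fibres and focal adhesions. It measured 165, 192, 243 and 210 CPM at the fovea and 107, 91.8, 133 and 161 CPM at the perimacula of RPE/choroid. The nasal eyes had 156, 126, 251 and 208 CPM and the peripheral eyes 68.1, 62.8, 79.4 and 86.8 CPM. The lowest foveal eye and the highest perimacular eye came from different animals and lay close to each other, while within each eye the fovea was well above the perimacula. The nasal values spanned the foveal range and overlapped the perimacular range, and the periphery lay below all other locations. The log2 difference between fovea and perimacula was 0.74 ± 0.10, or 1.67-fold.

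SORBS2 (ENSMMUG00000015733) encodes an adaptor with SH3 domains that binds actin regulators and Abl kinases at adhesions. It measured 431, 470, 423 and 391 CPM at the fovea and 276, 279, 210 and 239 CPM at the perimacula. The nasal eyes had 366, 306, 379 and 279 CPM, below every foveal and just above every perimacular eye. At the periphery the level dropped to 84.4, 122, 102 and 90.7 CPM. SORBS2 thus had the widest span of the actin-associated genes, with a mean of 429 ± 32.4 CPM at the fovea and 99.8 ± 16.7 CPM at the periphery (SD, n = 4), and a log2 difference of 0.78 ± 0.11 between fovea and perimacula.

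CHRM3 (ENSMMUG00000021442) encodes the M3 muscarinic acetylcholine receptor, which signals through Gq and drives contraction of smooth muscle and secretion in glands. In RPE/choroid it was low and tight at the fovea, with 25.5, 26.1, 23.6 and 26.5 CPM. At the perimacula it measured 60.5, 59.8, 90.9 and 45.9 CPM, above every foveal eye. The nasal location had 21.4, 19.7, 33.7 and 47.5 CPM and the periphery 47.2, 50.3, 67.4 and 57.7 CPM. The nasal eyes differed by animal, those of RM03 below and those of RM04 above the foveal range, and the peripheral eyes fell within the perimacular range. The log2 difference between fovea and perimacula was -1.32 ± 0.17, so that the perimacula was 2.503-fold higher.

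EBF3 (ENSMMUG00000011447) encodes a helix-loop-helix transcription factor of the early B-cell factor family, whose members act in neurons and mesenchyme. In RPE/choroid it was close to absent except at the perimacula, where it measured 4.80, 5.15, 4.43 and 5.69 CPM, from 269 to 316 estimated counts per library. At the fovea it measured 0.27, 0.089, 0.70 and 0.42 CPM, from 4 to 32 counts. The nasal eyes held 0.094, 0.41, 0.16 and 0.067 CPM, from 3 to 20 counts, and the peripheral eyes 0.63, 1.25, 1.19 and 0.64 CPM. Every perimacular eye was more than every eye of the other locations, the periphery came next and overlapped the fovea, and fovea and nasal location overlapped. The fitted log2 difference between fovea and perimacula was -3.84 ± 0.49, a 14.3-fold higher level at the perimacula, and rested on the few counts of the fovea.

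PRRX1 (ENSMMUG00000043224) encodes a paired-related homeobox transcription factor of mesenchyme, including that of the head. It measured 45.7, 41.6, 19.95 and 25.1 CPM at the fovea and 138, 154, 84.3 and 62.3 CPM at the perimacula of RPE/choroid. The nasal eyes had 65.4, 106, 38.3 and 60.4 CPM and the peripheral eyes 69.3, 110, 89.0 and 75.0 CPM. The animals differed here, with both RM03 eyes above both RM04 eyes at fovea, perimacula and nasal location. The foveal eyes lay below all perimacular and peripheral eyes, while perimacula, nasal location and periphery overlapped. The log2 difference between fovea and perimacula was -1.72 ± 0.21, or 3.29-fold higher at the perimacula.

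MOXD1 (ENSMMUG00000004996) encodes a relative of dopamine beta-hydroxylase, a copper-dependent monooxygenase, that resides in the endoplasmic reticulum. In RPE/choroid it measured 4.44, 5.46, 6.86 and 6.24 CPM at the fovea and 19.8, 24.85, 18.8 and 18.1 CPM at the perimacula. It measured 12.7, 10.7, 19.7 and 23.3 CPM at the nasal location and 32.7, 65.1, 47.75 and 47.35 CPM at the periphery. The fovea was below every other eye and the periphery above every other eye, while perimacula and nasal location overlapped. MOXD1 was the only member of the perimacular set whose peripheral eyes all exceeded all perimacular eyes, and its log2 difference between fovea and perimacula was -1.82 ± 0.21, or 3.53-fold.

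**Figure D2:**
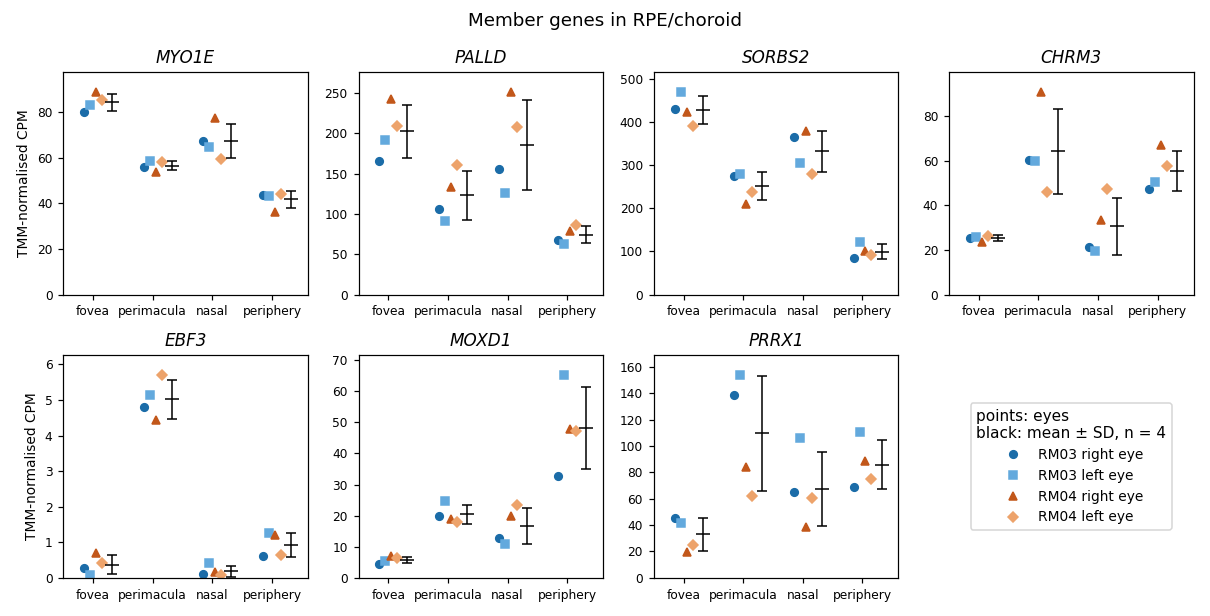
CPM of the 7 genes in RPE/choroid by location, a point for each eye and black bars for the mean ± SD of 4 eyes. MYO1E, PALLD and SORBS2 were highest at the fovea and lowest at the periphery, EBF3 stood out at the perimacula (5.02 ± 0.54 CPM), and MOXD1 was highest at the periphery (48.2 ± 13.3 CPM).

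All 7 genes had foveal and perimacular ranges that did not overlap, which held for 6.0% of the genes tested, and nothing is read from this since the same values chose the genes. By size of the log2 difference they ranked from 36 (EBF3) to 1813 (MYO1E) among the tested genes, so that they were not those with the largest differences. SORBS2 was the member nearest the threshold, with an adjusted p of 0.0397 in edgeR against 0.0349 for the other members. The genes just outside it were NR2F1, LSP1 and CAP2, each with an adjusted p of 0.0536. NR2F1, a nuclear receptor, and LSP1, an actin-binding protein of leukocytes, were lower at the fovea (-0.81 and -0.72 on the log2 scale). CAP2, which binds actin monomers, was higher there (0.68). The calls themselves depended on the fit, since DESeq2 called all 7 members among 314 genes whereas edgeR with the eye as a block called only MOXD1. Without the perimacula library of the RM03 right eye, edgeR called no gene (1236 had an unadjusted p under 0.05), yet the log2 differences of the members were 0.57, 0.75, 0.80, -1.33, -3.80, -1.83 and -1.70 for MYO1E, PALLD, SORBS2, CHRM3, EBF3, MOXD1 and PRRX1. Without the foveal library of the RM04 right eye, edgeR again called no gene (1187 had an unadjusted p under 0.05), and in the same order the differences were 0.55, 0.71, 0.75, -1.26, -4.26, -1.92 and -1.62.

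Markers of several cell types had the sign of the foveal genes between fovea and perimacula, and none of them was called. The sum of 12 smooth muscle and pericyte markers was 9254, 11706, 8638 and 7441 CPM at the fovea and 6712, 5667, 5158 and 5288 CPM at the perimacula, ranges that did not overlap. Their median log2 difference was 0.38 against -0.01 for all genes tested. It was 0.49 for 9 endothelial markers, with sums from 2468 to 3392 CPM at the fovea and 1910 to 2706 CPM at the perimacula, and 0.72 for 7 pigment epithelium markers, with sums from 8893 to 20318 CPM and 4741 to 15036 CPM. With the sign of the perimacular genes, the median was -0.31 for 5 melanocyte markers and -1.12 for 7 Schwann cell markers. The melanocyte list holds PMEL, which the paper counts among known genes of the RPE, and KIT was not analysed here. That list therefore does not stand for melanocytes alone. Markers of fibroblasts, cells known to express PRRX1, summed to between 3053 and 3931 CPM at the fovea and between 2499 and 5841 at the perimacula, with 0 of 8 called. No marker of these lists was at 0 in either location, and the part of these cells in the members' differences was not tested. For EBF3, which is also expressed by retinal neurons, the retinal neuron and glia markers summed to between 1041 and 1302 CPM at the fovea and between 1006 and 1311 CPM at the perimacula of RPE/choroid. None of those 8 markers was called either.

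The comparisons of the fovea or perimacula with the remaining RPE/choroid locations reuse the libraries that chose the genes, and they are given side by side with no test. Fovea minus nasal log2 differences were small for MYO1E (0.32), PALLD (0.16), SORBS2 (0.37) and CHRM3 (-0.20), were -1.51 for MOXD1 and -1.05 for PRRX1, and came to 0.95 for EBF3, where both groups held few counts. Perimacula minus nasal differences were 4.72 for EBF3, 1.11 for CHRM3, 0.67 for PRRX1 and 0.33 for MOXD1, and were -0.26, -0.59 and -0.42 for MYO1E, PALLD and SORBS2. Fovea minus periphery differences were 1.00, 1.44 and 2.09 for MYO1E, PALLD and SORBS2 and -1.13, -1.42, -3.08 and -1.48 for CHRM3, EBF3, MOXD1 and PRRX1. The direction of fovea against periphery was therefore that of fovea against perimacula for each of the 7 genes, in comparisons that share the foveal libraries.

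The nasal RPE/choroid libraries took no part in the choice, and the level of the periphery was not compared in it. The peripheral libraries shared the fit that chose the genes, and all 4 locations shared the estimate of spread here. Tests with the periphery of RPE/choroid are therefore not fully independent of the choice. Between nasal and peripheral RPE/choroid 6 of the 7 genes changed, against 44.6% of the 15789 genes tested. MYO1E, PALLD and SORBS2 were higher at the nasal location and CHRM3, EBF3 and MOXD1 higher at the periphery. SORBS2 was 3.32-fold higher nasally (log2 1.73 ± 0.12, edgeR with Benjamini-Hochberg adjustment, adjusted p = 1.44e-07) and PALLD 2.43-fold (1.28 ± 0.12, adjusted p = 1.23e-06 in edgeR). MYO1E differed by 0.68 ± 0.09 (adjusted p = 2.76e-05 in edgeR). All 3 were higher nasally in 4 of 4 eyes with no overlap between the locations. MOXD1 was 2.99-fold higher at the periphery (log2 -1.58 ± 0.24, adjusted p = 9.82e-05 in edgeR), EBF3 4.93-fold (-2.30 ± 0.58, adjusted p = 0.00517) and CHRM3 1.88-fold (-0.91 ± 0.21, adjusted p = 0.00319).

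PRRX1 did not pass the test, with a log2 difference of -0.44 ± 0.22 and an adjusted p of 0.123 in edgeR, and its nasal and peripheral eyes overlapped. The ranges of 5 of the 7 genes did not overlap, against 30.2% of all genes tested. For CHRM3 they touched, since the highest nasal eye (47.5 CPM) was just above the lowest peripheral eye (47.2 CPM). Without the periphery library of the RM03 left eye, in which Schwann cell markers were highest, the same 6 genes passed, and the largest moves were those of EBF3 (-2.04), MOXD1 (-1.33) and SORBS2 (1.82).

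Cell type markers differed between these locations as well, and their counts stand beside the 21.8% of all genes called higher nasally and the 22.8% called higher at the periphery. Of the smooth muscle and pericyte markers 11 of 12 were higher nasally (median log2 difference 1.21, against -0.04 for all genes), and their sum was 7371, 5897, 7295 and 4553 CPM nasally against 1627, 3217, 2652 and 1438 CPM at the periphery. Endothelial markers were higher nasally for 7 of 9, with sums from 2666 to 2795 CPM against 1368 to 1719 CPM. Fibroblast markers summed to between 3392 and 4974 CPM nasally and between 5134 and 10387 CPM at the periphery, where 3 of 8 were higher and 1 was lower. The melanocyte list, which does not stand for melanocytes alone, summed to between 5100 and 5612 CPM nasally. At the periphery it summed to between 9000 and 11077 CPM, and 2 of 5 markers were higher there. Schwann cell and macrophage markers were higher at the periphery for 4 of 7 each, while the 2 of 9 rod markers higher there were a share like that of all genes. No list was at 0 in any library, and the part of these cell types in the changes of the members was not tested.

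The genes related to the actin-associated members moved with them from nasal to peripheral RPE/choroid more often than in the opposite direction. Of 7 class I myosins tested 3 were higher nasally and none was lower, including MYO1C (0.60) and MYO1E. Of all genes tested 21.8% were higher nasally and 22.8% lower, shares that also stand beside the other lists below. MYO1D, another abundant family member, averaged 142 CPM nasally and 112 CPM at the periphery and was not called. Of 10 genes of the palladin list 6 were higher nasally and none was lower. Among the 6 were the actin crosslinkers ACTN4 (0.94) and ACTN1 (1.03), LASP1 (0.43) and PFN1 (0.56), the actin monomer-binding profilin. Of 11 genes of the SORBS list 7 were higher nasally and none was lower, including vinculin (VCL, 0.94) and zyxin (ZYX, 1.04). The paralogue SORBS3 was not called, with means of 383 CPM nasally and 331 CPM at the periphery. The lists hold the members themselves.

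The cholinergic genes did not share a direction with CHRM3. Of 13 tested, 5 were higher nasally (21.8% of all genes were) and 2 at the periphery (22.8% of all genes), CHRM3 and BCHE (-0.55), a cholinesterase of plasma and glia. The M2 receptor gene CHRM2, found in smooth muscle and heart, was higher nasally by 1.68 on the log2 scale (adjusted p = 0.00833 in edgeR), with means of 28.3 CPM nasally and 6.98 CPM at the periphery. It averaged 27.6 CPM at the fovea and 21.8 CPM at the perimacula, so that the order of locations for CHRM2 was not that of CHRM3. The choline transporter gene SLC5A7 (1.42) and the Gq pathway genes GNAQ, GNA11 (0.76) and PLCB4 (0.44) were also higher nasally. GNAQ has 3 entries in the tables, and the one used here, with a difference of 0.77, is uncertain.

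EBF3 also stood apart from its paralogues in RPE/choroid. EBF1 averaged 40.2, 38.0, 38.2 and 18.5 CPM at the fovea, perimacula, nasal location and periphery, and was higher nasally than at the periphery by 0.99 (adjusted p = 0.000446 in edgeR), the direction opposite to EBF3. EBF2 averaged 6.47, 5.87, 3.84 and 3.66 CPM and EBF4 23.2, 18.05, 19.9 and 16.9 CPM, and neither was called between nasal location and periphery. None of these 3 paralogues was called between fovea and perimacula, where their log2 differences were 0.08, 0.30 and 0.37 for EBF1, EBF2 and EBF4.

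The 15 mesenchymal and periocular transcription factors tested split, 3 being higher nasally and 4 at the periphery, shares near the 21.8% and 22.8% of all genes. Higher nasally were SIX2 (2.05), TBX18 (1.25) and FOXC2 (0.54), and higher at the periphery were TFAP2B (-1.91), TWIST1 (-1.53), FOXD1 (-1.16) and TWIST2 (-0.62). The abundant members FOXC1 and FOXF2 were not called, nor was PRRX1. Between fovea and perimacula, TFAP2B (-1.66 on the log2 scale) and TBX15 (-2.65) had the sign of PRRX1 and were not called, and TCF21 was opposite in sign (1.73) and not called either. TFAP2B, TBX15 and TCF21 are named after their values were seen. Of the copper monooxygenases, PAM, which amidates peptides, was higher nasally (0.43) and MOXD1 at the periphery, while DBH averaged below 0.1 CPM at each location. LPP and PRRX2 were not analysed here.

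In neural retina the members followed another order of locations. Between fovea and perimacula 5 of the 7 genes changed, against 35.2% of the 15380 genes tested, of which 19% were higher and 16.2% lower at the fovea. MYO1E and MOXD1 kept the direction they had in RPE/choroid, whereas SORBS2, CHRM3 and EBF3 had the opposite one. PALLD and PRRX1 did not pass the test. The ranges of the same 5 genes did not overlap, against 29.5% of all genes tested.

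EBF3 was far more abundant in retina than in RPE/choroid and was highest at the fovea. It measured 48.0, 55.6, 53.4 and 55.0 CPM at the fovea and 17.3, 18.8, 17.9 and 30.8 CPM in the perimacular eyes. The nasal eyes had 15.02, 12.7, 17.55 and 16.03 CPM and the peripheral eyes 3.23, 1.45, 4.57 and 3.31 CPM. The foveal eyes exceeded all others and the peripheral eyes were below all others, while perimacula and nasal location overlapped. The foveal level was 2.64-fold that of the perimacula (log2 1.40 ± 0.24, adjusted p = 0.000999 in edgeR) and 18.003-fold that of the periphery (4.17 ± 0.27, adjusted p = 1.53e-07 in edgeR). All 4 EBF genes were higher at the fovea than at the perimacula, EBF1 by 1.33, EBF2 by 1.77 and EBF4 by 0.46, and than at the periphery, by 3.90, 4.65 and 0.61. The ganglion cell gene RBPMS averaged 319, 133, 72.0 and 12.4 CPM at fovea, perimacula, nasal location and periphery, and NEFL, a neurofilament of ganglion cells named after its values were seen, averaged 2815, 1065, 531 and 168 CPM, the same order as EBF3. Of the 8 retinal neuron and glia markers 3 were higher at the fovea than at the perimacula and 2 lower, against 19% and 16.2% of all genes, with sums from 4217 to 4640 CPM and from 2157 to 3132 CPM, and their part in the change of EBF3 was not tested.

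CHRM3 fell from fovea through perimacula to periphery in retina. It measured 30.96, 28.2, 31.2 and 30.5 CPM at the fovea and 22.4, 18.4, 15.7 and 25.6 CPM in the perimacular eyes. The nasal eyes had 18.3, 18.02, 16.4 and 15.8 CPM and the peripheral eyes 10.5, 10.98, 10.9 and 7.85 CPM. The foveal eyes were above and the peripheral eyes below all others. Fovea exceeded perimacula by 0.61 ± 0.16 (adjusted p = 0.00977 in edgeR) and periphery by 1.64 ± 0.16 (adjusted p = 2.60e-06 in edgeR), in 4 of 4 eyes each. Without the RM03 right, RM03 left or RM04 right eye the former was 0.63, 0.56 or 0.48 and missed the threshold (adjusted p of 0.0583, 0.0502 and 0.0656 in edgeR). Of 14 cholinergic genes 6 were higher at the fovea than at the perimacula and none lower, against 19% and 16.2% of all genes. Among them were ACHE (0.76), which breaks down acetylcholine, BCHE (0.95) and CHRM4 (1.38), an M4 receptor gene averaging 1.95 CPM at the fovea.

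SORBS2 rose from fovea through perimacula to periphery in retina, against its course in RPE/choroid. It measured 79.4, 71.8, 60.5 and 69.1 CPM at the fovea and 155, 131, 133 and 119 CPM in the perimacular eyes. The nasal eyes had 177, 170, 166 and 162 CPM and the peripheral eyes 195, 208, 192 and 195 CPM. No pair of locations overlapped. The fovea was lower than the perimacula (log2 -0.89 ± 0.08, adjusted p = 3.28e-05 in edgeR) and lower than the periphery by more (-1.45 ± 0.08, adjusted p = 9.00e-08 in edgeR). SORBS3 went the opposite way, being higher at the fovea than at the perimacula by 0.62 on the log2 scale. SORBS2 was also the only member that passed between perimacula and nasal retina (-0.33 ± 0.07, adjusted p = 0.0313 in edgeR), where 1.49% of all genes did. That call was lost without any of the 4 eyes in turn (-0.36 to -0.28) and without the perimacula library of the RM04 left eye alone (-0.29, adjusted p = 0.118 in edgeR). Rod markers rose in the same order, their sum going from 4007 to 4617 CPM at the fovea to 10646 to 16564 at the perimacula, 15099 to 17490 at the nasal location and 23904 to 27959 at the periphery, with 9 of 9 lower at the fovea than at the perimacula. The sums of the pigment epithelium markers had the same order without overlap, from 372 to 520 CPM at the fovea to 581 to 942, 1161 to 1383 and 1997 to 2885 CPM, and 1 of 7 was called between fovea and perimacula, lower at the fovea. Endothelial markers summed to between 318 and 378 CPM at the fovea, 430 and 458 at the perimacula, 528 and 605 at the nasal location and 574 and 681 at the periphery, with 3 of 9 lower and 1 higher at the fovea than at the perimacula. Of all genes tested 19% were higher and 16.2% lower at the fovea than at the perimacula. The part of the rods, pigment epithelium and endothelium in the course of SORBS2 was not tested.

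MOXD1 was low at the retinal fovea, with 9.79, 9.15, 13.1 and 16.6 CPM, as it was in RPE/choroid. The perimacula had 32.4, 35.2, 35.1 and 24.8 CPM, the nasal location 38.0, 44.6, 34.1 and 30.4 CPM and the periphery 32.4, 27.2, 36.8 and 30.3 CPM. The foveal eyes were below all others and the remaining locations overlapped. The difference between fovea and perimacula was -1.36 ± 0.17 (adjusted p = 0.000194 in edgeR). MOXD1 did not differ detectably between perimacula and periphery of the retina (0.02 ± 0.17, adjusted p = 0.941 in edgeR).

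MYO1E was highest at the retinal fovea, with 18.7, 17.8, 15.3 and 17.1 CPM against 12.6, 13.3, 9.80 and 14.03 CPM at the perimacula. It had 9.13 to 12.4 CPM at the nasal location and 8.88 to 11.6 CPM at the periphery, which overlapped with each other and with the perimacula. Fovea exceeded perimacula by 0.52 ± 0.12 (adjusted p = 0.00654 in edgeR), a value that missed the threshold without the RM03 right eye (0.47, adjusted p = 0.0640 in edgeR). Of 8 class I myosins tested 2 were higher at the fovea and 1 was lower, against 19% and 16.2% of all genes. MYO1C was higher by 1.43 on the log2 scale.

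PALLD lay between 20.98 and 34.7 CPM in all 16 retina libraries. Its log2 differences were 0.16 ± 0.12 between fovea and perimacula and -0.18 ± 0.12 between fovea and periphery (adjusted p of 0.320 and 0.183 in edgeR). The perimacula, with 25.05, 24.03, 20.98 and 25.8 CPM, was lower than the periphery, with 30.2, 34.7, 31.4 and 24.9 CPM (-0.34 ± 0.12, adjusted p = 0.0285 in edgeR), with this direction in 3 of 4 eyes and ranges that overlapped. This call was lost without the RM03 right (-0.32), RM03 left (-0.23) or RM04 right eye (-0.25), with adjusted p of 0.122, 0.120 and 0.177 in edgeR. PRRX1 lay between 0.30 and 1.33 CPM in the retina libraries. Its log2 difference was 0.38 ± 0.22 between fovea and perimacula (adjusted p = 0.218 in edgeR) and 0.79 ± 0.22 between fovea and periphery (adjusted p = 0.00774 in edgeR), with 4 of 4 eyes higher at the fovea, and the latter missed the threshold without the RM04 left eye (0.55, adjusted p = 0.0616 in edgeR). The choroidal collagen gene COL1A2 was at 1.57 CPM in foveal and 2.51 CPM in peripheral retina, against 865 and 1334 CPM in RPE/choroid.

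**Figure D3:**
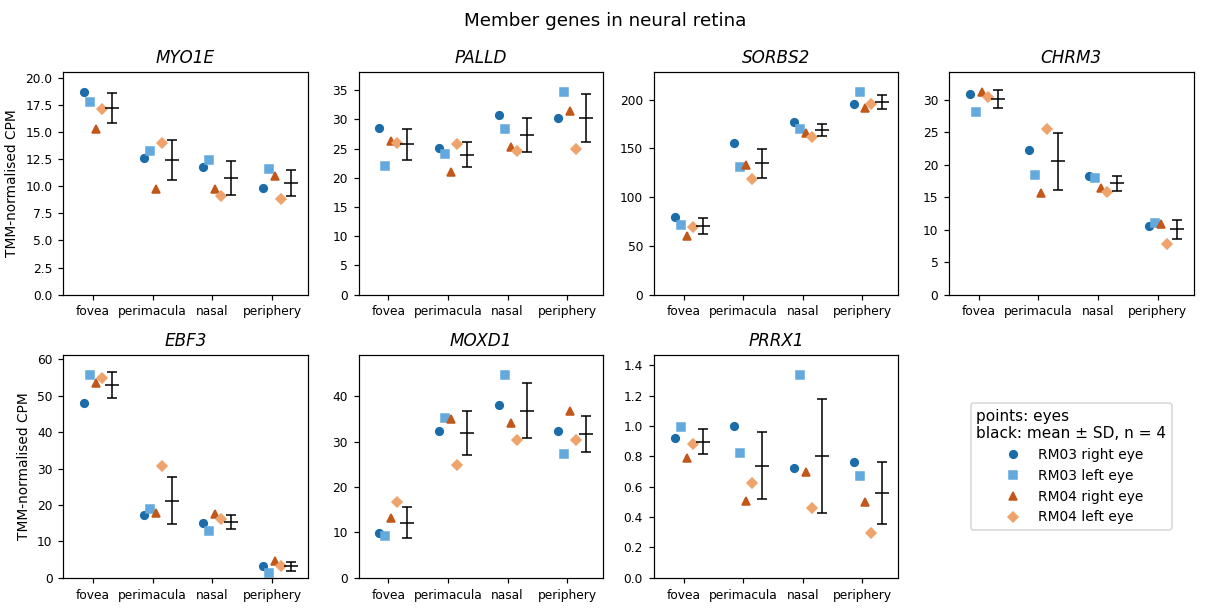
CPM of the 7 genes in neural retina by location, a point for each eye and black bars for the mean ± SD of 4 eyes. EBF3 and CHRM3 fell and SORBS2 rose from fovea to periphery, MOXD1 was lowest at the fovea (12.2 ± 3.43 CPM), and PALLD stayed between 20.98 and 34.7 CPM.

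The remaining retinal comparisons showed the same courses. Between fovea and nasal retina 5 of the 7 genes passed, against 52.2% of all genes, with MYO1E (0.72), CHRM3 (0.86) and EBF3 (1.84) higher and SORBS2 (-1.23) and MOXD1 (-1.57) lower at the fovea. Between fovea and periphery 6 of 7 passed, against 67.0%, PALLD being the exception. Between perimacula and periphery 4 of 7 passed, against 50.3%, with CHRM3 (1.03) and EBF3 (2.77) higher and SORBS2 (-0.56) and PALLD lower at the perimacula. These comparisons share libraries and are not separate evidence.

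Whether the change from nasal location to periphery differed between the tissues was tested as an interaction over all 32 libraries. It did for 6 of the 7 genes, against 15.4% of the 16382 genes tested. The RPE/choroid minus retina difference in the nasal minus periphery change was 1.97 ± 0.14 for SORBS2 (adjusted p = 3.84e-09 in edgeR), 1.46 ± 0.23 for PALLD (adjusted p = 0.000181) and 0.64 ± 0.15 for MYO1E (adjusted p = 0.00507). It was -4.59 ± 0.55 for EBF3 (adjusted p = 1.29e-05 in edgeR), -1.79 ± 0.31 for MOXD1 (adjusted p = 0.000416) and -1.65 ± 0.29 for CHRM3 (adjusted p = 0.000477). For EBF3, CHRM3 and SORBS2 both tissues changed and in opposite directions, since in retina the nasal location exceeded the periphery by 2.31 ± 0.23 for EBF3 and 0.78 ± 0.13 for CHRM3, and was lower for SORBS2 (-0.22 ± 0.07), with adjusted p of 2.09e-06, 0.000251 and 0.0163 in edgeR. The retinal call of SORBS2 was lost without the RM03 left (adjusted p = 0.0789) or RM04 left eye (adjusted p = 0.0586 in edgeR). In retina these 3 of 7 genes passed, against 48.7% of all genes. PRRX1 missed the threshold in the interaction (-0.95 ± 0.34, adjusted p = 0.0552 in edgeR), passing without the RM03 right eye (-1.23, adjusted p = 0.0365 in edgeR), and MYO1E missed it without the RM04 right eye (0.43, adjusted p = 0.0781 in edgeR). Without the periphery library of the RM03 left eye in RPE/choroid, the same 6 genes passed.

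**Figure D4:**
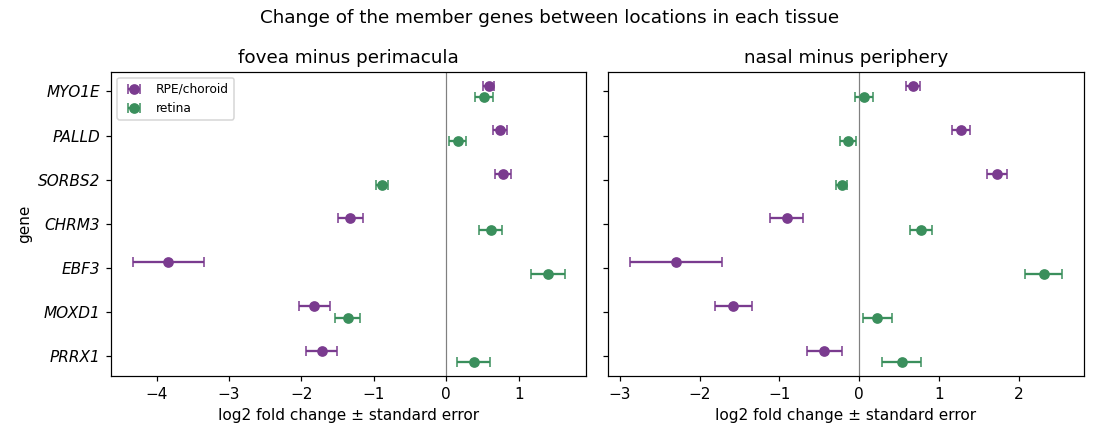
Log2 fold change ± standard error of the 7 genes in RPE/choroid (purple) and retina (green), for fovea minus perimacula on the left and nasal minus periphery on the right. The RPE/choroid values on the left chose the genes. EBF3, CHRM3, SORBS2 and PRRX1 lie on opposite sides of 0 in the tissues in both panels, and PALLD and MOXD1 do so on the right. The retinal values of PRRX1 in both panels, and of PALLD and MOXD1 on the right, did not pass the test. Nor did the RPE/choroid value of PRRX1 on the right.

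The tissues themselves were compared in the nasal and the peripheral punches. Of their RPE/choroid libraries the nasal ones took no part in the choice, and the peripheral ones shared its fit. All 7 genes differed at each location, against 76.2% and 75.7% of all genes tested. PRRX1 was 84.0-fold higher in RPE/choroid at the nasal location (retina minus RPE/choroid log2 -6.39 ± 0.27, adjusted p = 2.07e-17 in edgeR) and MYO1E and PALLD were 6.29-fold and 6.68-fold higher in that tissue. EBF3 was 80.0-fold higher in retina (6.32 ± 0.44, adjusted p = 8.42e-13 in edgeR), a ratio that rests on 3 to 20 counts per RPE/choroid library. At the periphery this difference was smaller, 3.31-fold (1.73 ± 0.35, adjusted p = 7.59e-05 in edgeR).

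SORBS2 turned direction between the locations, being 1.98-fold higher in RPE/choroid at the nasal location (-0.98 ± 0.10) and 1.98-fold higher in retina at the periphery (0.98 ± 0.10), with adjusted p of 1.84e-09 and 1.90e-09 in edgeR. MOXD1 turned the other way, from 1.17 ± 0.22 at the nasal location to -0.61 ± 0.22 at the periphery (adjusted p of 3.23e-05 and 0.0128 in edgeR). The latter call was lost without the periphery RPE/choroid library of the RM03 left eye (-0.38, adjusted p = 0.109 in edgeR). CHRM3 was higher in RPE/choroid at both (log2 -0.81 ± 0.21 and -2.45 ± 0.21). The fitted values for fovea and perimacula, which chose the genes, are not used here.

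The genes whose pattern over the 16 RPE/choroid libraries was nearest to each member were found by the root mean square difference of log2 CPM after centring each gene on its mean. For MYO1E, which itself deviated by 0.38 from its mean in this measure, they included NPTN and HK1 (0.15 each). For PALLD (0.63) they were COBLL1, SPRY4 and ERG, the last a transcription factor of endothelium, at 0.21 to 0.22. For SORBS2 (0.82) they were DUSP7, NMNAT2 and ARHGAP17 at 0.23 each. In absolute size the nearest distances were larger for the perimacular genes. The measure tends to grow with a gene's own deviation, given in brackets. The nearest to CHRM3 (0.65) were PDZD7, SRPX and IGSF8 at 0.36 to 0.37, to MOXD1 (1.13) GPC3, P2RY1 and ACSM5 at 0.49 to 0.57, and to PRRX1 (0.80) KCNAB1, EXOC2 and ZFHX4 at 0.48. EBF3 (1.93) had HS3ST4, JPH4 and GRIN2A at 1.35 to 1.41, most of its own deviation. No member was among the nearest 3 of another, and since the perimacular and foveal libraries chose the members, this likeness is a description.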

How the data were processed

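RNA from 2 mm punches (poly-A selected, paired-end) was quantified by the authors with Salmon 0.13 against Mmul_8.0.1 and imported to genes with tximport, and the deposited values are estimated counts per gene and sequencing lane, scaled for length and not normalized to depth. The lane values of each library were added up and then rounded here (136 lanes, 32 libraries, lane sums of 7932258 to 39439053), and 10 repeated identifiers were counted once. Fovea, perimacula and nasal libraries ran on 5 lanes of 2 flow cells, periphery libraries on 2 lanes of another. Genes were tested with edgeR 4.0.16 (quasi-likelihood, TMM, filterByExpr at 10 counts, limma 3.58.1, R 4.3.3), the monkey as covariate, and p-values adjusted by Benjamini-Hochberg across every gene tested (threshold 0.05). Fovea, perimacula and periphery of a tissue were fitted together, nasal comparisons with all 4 locations, and tissue comparisons with all 32 libraries. All 7 genes passed the filter in each fit. CPM used TMM factors, and pattern likeness log2 CPM at a prior count of 2. DESeq2 1.42.0 was an alternative, and Python 3.11.15 drew the tables. The code was tested on simulated data.

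The members and the gene lists were chosen with earlier results of these data known. Beyond the members, the text names the 3 genes nearest outside the threshold, the 3 nearest in pattern to each member, paralogues of members, list genes among the 4 most abundant of their list in RPE/choroid, and called genes of lists with 5 or fewer calls. Some genes that these rules pick are not reported here. Examples from lists with more calls were chosen after their values were seen. Numbers pair the samples by their labels, since a number is an eye. Deviations from the group means were correlated over the 1000 most variable genes. The mean was 0.387 (RPE/choroid) and 0.561 (retina) within an eye, 0.403 and 0.555 with the fellow eye, and -0.395 and -0.559 with the other animal. The deviations within a group cancel out, so the negative values follow from the positive ones and are not separate evidence. The positive values set the animals apart but not the fellow eyes. Replicates differed by at least 4.32 times the counting noise, so that none was a repeat of another. Alternatives were DESeq2, RLE factors, no filter, the eye as a block, no covariate, compared groups alone, a monkey term for each tissue, and leaving out eyes. Leaving out single libraries was added after seeing the data. No sequences of the genes were used here. PXN, GNAQ, TAGLN, LUM and GLUL have several entries. The entry used was chosen by a matching macaque symbol, then by the support for its gene name, and by abundance only where these were tied.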

Additional observations from a re-analysis of the deposited data

Results flagged for a closer look

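In 3 of 56 groups of 4 eyes, a sample stood apart by Dixon's test at 95%, about the 1 in 20 that chance gives. MYO1E in peripheral RPE/choroid was 36.1 CPM in the RM04 right eye against 43.1 to 44.2 in the others. CHRM3 in peripheral retina was 7.85 CPM in the RM04 left eye against 10.5 to 10.98. EBF3 in perimacular retina was 30.8 CPM in the RM04 left eye against 17.3 to 18.8. In that last library rod markers also summed to 10646 CPM against 14495 to 16564 in the other perimacular retinas, and without it the same 5 genes passed between fovea and perimacula.

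The nasal minus periphery change differed between RPE/choroid and retina, by the interaction test, for SORBS2 (1.97), PALLD (1.46), MYO1E (0.64), CHRM3 (-1.65), MOXD1 (-1.79) and EBF3 (-4.59).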

How the results depend on the processing

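Of 7 genes called between fovea and perimacula in RPE/choroid, edgeR with the eye as a replicate block called 1 (MOXD1), edgeR with no covariate 1, and edgeR without the perimacula library of the RM03 right eye or the foveal library of the RM04 right eye 0. Leaving out each eye left 0 to 1 of the 7. Over all genes, that comparison gave 7 calls in edgeR, 314 with DESeq2, 357 with the compared groups alone, 42 without the peripheral library of the RM03 left eye, 10 with no filter, 1 with the block, 1 with no covariate, 0 without either of the single libraries above and 0 to 5 without an eye. Where no gene was called in edgeR, 878 to 1491 had an unadjusted p under 0.05.

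Between fovea and perimacula of the retina, leaving out each eye left 3 to 5 of the 7 genes. Between perimacula and nasal retina the call of SORBS2 was 1 of 7 genes, and 0 with no covariate, with the compared groups alone, without the perimacula library of the RM04 left eye and, as a range of 0 to 0, without each eye. All genes called there were 231 in edgeR, 785 with DESeq2, 29 with no covariate, 71 without that library and 14 to 66 without an eye. The block changed no other call. PALLD between fovea and nasal retina, not called (-0.04), ranged from -0.084 to 0.050 when each eye was left out and changed sign without the RM03 right (0.015) or left eye. Others that changed sign were not called: MOXD1 between perimacula and periphery of the retina without the RM03 left eye (-0.065, against up to 0.11 without another eye and 0.16 without the perimacula library of the RM04 left eye), PRRX1 between perimacula and nasal retina without the RM03 left (0.18) or RM04 right eye (0.0068, against down to -0.26), and MYO1E between nasal and peripheral retina without the RM03 right eye (-0.050, against up to 0.15). MYO1E between perimacula and periphery of the retina passed with DESeq2 (0.31, adjusted p = 0.0363), and SORBS2 between nasal and peripheral retina missed the threshold with no covariate (adjusted p = 0.0608 in edgeR). PRRX1 between fovea and periphery of the retina missed the threshold with no covariate (0.74, adjusted p = 0.0581 in edgeR), and its interaction passed with DESeq2 (-0.95, adjusted p = 0.0368). In all, 874 of 959 log2 differences kept direction and side of the threshold, 75 lost and 4 gained a call, and 6 changed sign. Precision is limited by 2 animals and, for EBF3 in RPE/choroid, by few counts.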
